A study of Mus musculus with 4 samples.

Results

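The beta-1 and beta-7 integrin chains and some of the alpha chains that pair with them were followed in monocytes sorted from mouse bone marrow. They were chosen by gene symbol as Itgb1, Itgb7, Itga1, Itga4, Itga5, Itga6, Itga9 and Itgae, which are 8 of the 31017 genes in the count tables. The choice was made with earlier results of these data known. The study, whose title links marrow age with how clonal the smooth muscle lineage is in plaques of atherosclerosis, measured messenger RNA in 2 libraries from aged mice (18 months) and 2 from young mice (3 months). Both ages were C57BL/6 mice labelled wild type, and all 4 libraries carry the label atherosclerosis, with no diet, transplant or lesion state given. Whether the libraries of 1 age come from different mice or from pools is not labelled, and the p-values rest on the spread of these libraries alone, part of which may be technical. Library totals ran from 20159129 to 34278754 counts, with young replicate 1 the deepest.

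An integrin is a pair of membrane chains, 1 alpha and 1 beta, that binds matrix or a counter-receptor outside the cell and actin, through talin and kindlin, inside it. The beta-1 chain pairs with many alpha chains, and the alpha chain sets the ligand: alpha-1 binds collagen, alpha-4 binds VCAM-1 and fibronectin, alpha-5 binds fibronectin, alpha-6 binds laminin, and alpha-9 binds tenascin and other matrix proteins. The beta-7 chain pairs with alpha-4, as a receptor for MAdCAM-1, or with alpha-E, as a receptor for E-cadherin. In the marrow alpha-4 beta-1 holds haematopoietic cells to VCAM-1 on stroma, and on monocytes it takes part in adhesion to inflamed vessel walls.

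Aged monocytes had lower levels of the alpha chains Itga4, by 1.49-fold, and Itga1, by 1.44-fold, while neither beta chain passed the test across all genes. Itga5 and Itga6 had lower values in both aged libraries and Itgb1 had higher ones, all without passing, and Itga9 and Itgae were close to the limit of detection. All 8 genes entered the test. Of them 2 were lower and 0 higher in aged monocytes at an adjusted p under 0.05 (edgeR quasi-likelihood test, Benjamini-Hochberg over 12035 genes), against 5.77% of all tested genes called in either direction, 2.89% called lower and 2.87% called higher. An unadjusted p under 0.05 was reached by 5 of the 8, and by 2536 of the 12035 tested genes. The median log2 change of the 8 was -0.18, against -0.0044 over all tested genes. The groups did not overlap in 6 of the 8 (5 lower and 1 higher in aged), where 51.6% of all tested genes did not overlap (25.7% lower, 25.9% higher). In RNA from a bulk of sorted cells, fewer cells of a kind and less RNA per cell cannot be told apart.

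**Figure D1:**
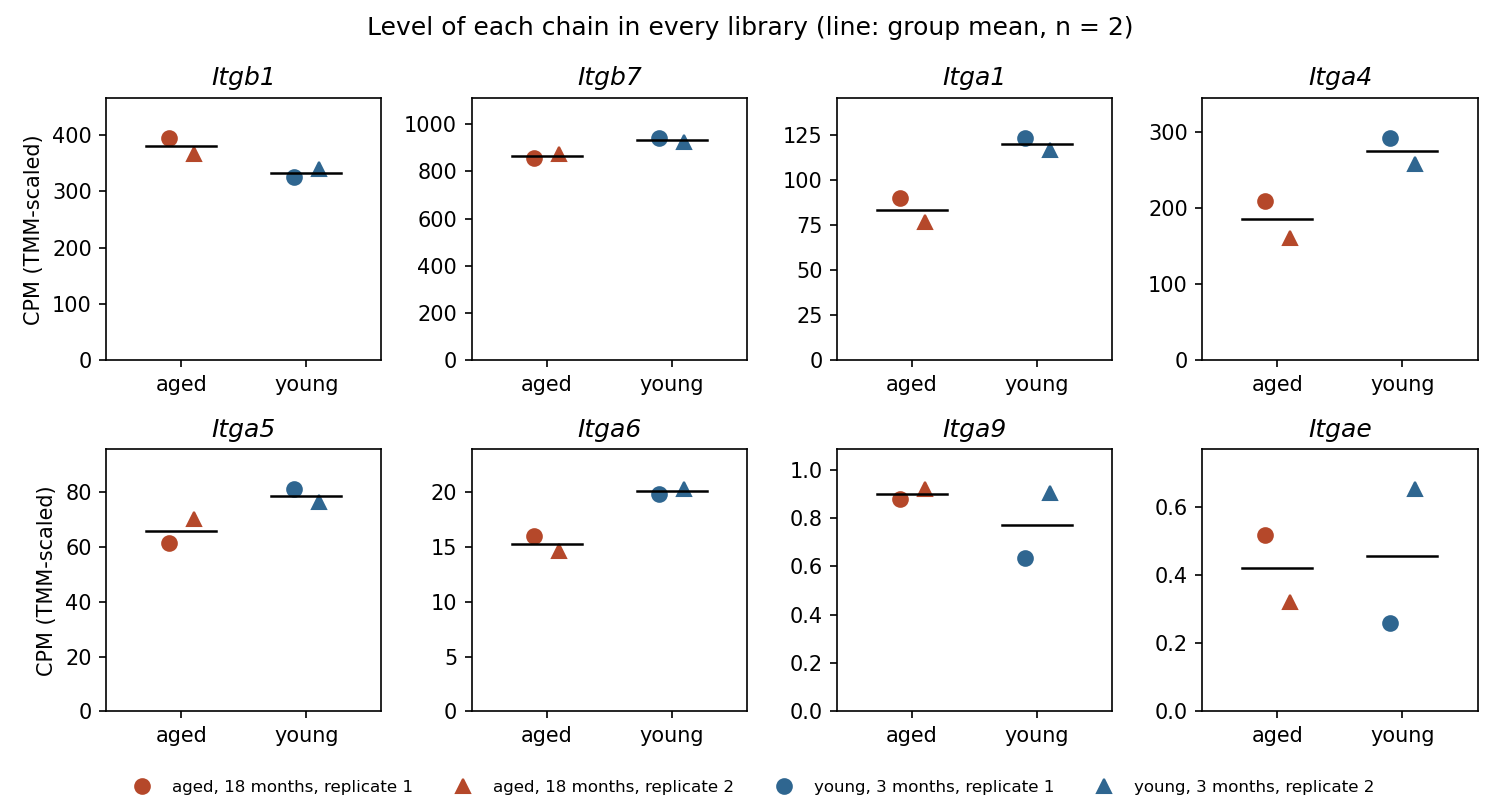
Level of each of the 8 chains in CPM (counts scaled to library size with TMM factors) in the 2 aged and the 2 young libraries, each panel with its own axis from 0, points for libraries and lines for group means. The aged points lie below the young ones for Itga1, Itga4, Itga5, Itga6 and Itgb7, above them for Itgb1, and among them for Itga9 and Itgae.

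Itgb7, the beta-7 chain, was the most abundant of the group. Its level was 856 and 875 CPM in the aged libraries, against 942 and 923 CPM in the young ones. Both aged values lay below both young values, by a margin of a few percent. The log2 change was -0.11 ± 0.050 (SE, n = 2 per age; edgeR adjusted p = 0.257), so the difference did not pass. The gene lies on chromosome 15, 102215995 to 102231944 (GRCm38, minus strand, ENSMUSG00000001281.10). Scaled to the length of its main transcript, Itgb7 ranked 187 among 11910 tested genes with a known length.

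Itgb1, the beta-1 chain, was the only member with enough reads to compare that had higher values in both aged libraries. It stood at 394 and 366 CPM in aged and at 325 and 339 CPM in young monocytes. The log2 change was 0.20 ± 0.059 (edgeR adjusted p = 0.0823), a ratio of 1.15 that did not pass. The gap between the group means was larger than the gap between replicates, which was 0.11 on the log2 scale between the aged and 0.060 between the young libraries. Itgb1 lies on chromosome 8, 128685654 to 128733200 (plus strand, ENSMUSG00000025809.15).

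Counted per kilobase of transcript, the beta chains stood far above the alpha chains. The level was 323 ± 5.13 CPM per kilobase in aged and 347 ± 4.99 in young monocytes for Itgb7 (SD, n = 2 each), and 99.7 ± 5.15 in aged and 86.9 ± 2.57 in young for Itgb1. Itga4 followed with 18.9 ± 3.46 CPM per kilobase in aged and 28.1 ± 2.45 in young, then Itga5 with 15.01 ± 1.39 in aged and 17.9 ± 0.767 in young. Below them stood Itga1, with 7.60 ± 0.830 in aged and 10.9 ± 0.417 in young, and Itga6, with 3.55 ± 0.216 in aged and 4.65 ± 0.0725 in young. In aged monocytes the gap between Itga4 and Itga5 was close to the SD of Itga4. Itga9 and Itgae lay near 0.1 CPM per kilobase, overlapped each other and had no order. With all annotated exons joined in place of the main transcript, a length chosen after seeing the data, the order of the means over all 4 libraries was the same, but in aged monocytes Itga5 then averaged 13.3 and Itga4 13.2 CPM per kilobase. The summed level of the 6 alpha chains was 47.5 and 43.1 CPM per kilobase in aged monocytes, against 64.3 and 59.4 in young ones, while the sum of Itgb1 and Itgb7 was 422 in both aged libraries and 436 and 433 in the young ones. The sum of these 6 alpha chains was thus lower in both aged libraries by more than the gap between replicates, and the beta sum moved little. Itga4 held 44.9% and 38.2% of the sum of the 6 in the aged libraries and 46.4% and 44.4% in the young ones. Alpha chains outside the group were left out of this sum. Among them, and outside the naming rule, Itgav, a further partner of beta-1, averaged 11.74 CPM per kilobase in aged and 11.93 in young monocytes. Itga8, likewise outside the rule, averaged 2.86 in aged and 3.24 in young, and for both genes the groups overlapped. The lower sum and the share of Itga4 therefore describe the 6 chosen chains and not all alpha partners of the beta chains.

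Itga4, the alpha chain shared by the VCAM-1 receptor alpha-4 beta-1 and the MAdCAM-1 receptor alpha-4 beta-7, fell in aged monocytes. It was read at 209 and 161 CPM in the aged libraries, from 5232 and 3496 counts, against 292 and 258 CPM in the young ones, from 10073 and 5137 counts. Both aged libraries lay below both young ones, and the aged libraries differed from each other by 0.38 on the log2 scale, the widest gap between aged replicates among the 6 abundant members. The log2 change was -0.57 ± 0.11 (edgeR adjusted p = 0.0128). Without young replicate 1 it was -0.48 and did not pass (adjusted p = 0.0848). Over the libraries left out in turn it ran from -0.77 without aged replicate 1 to -0.40 without aged replicate 2. Itga4 lies on chromosome 2, 79255426 to 79333123 (plus strand, ENSMUSG00000027009.18). Cerkl, on the other strand, overlaps 8.04% of its annotated exon bases. Since the strand setting of the counting is not given in the sources used here, reads there cannot be assigned with certainty. Cerkl itself was listed at 56 and 33 counts in aged monocytes, against 62 and 31 in young ones. These counts do not show how reads over the shared bases were handled, and the part of the overlap was not tested.

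Itga1, the alpha chain of a collagen receptor, had 89.8 and 76.9 CPM in the aged libraries, against 123 and 117 CPM in the young ones. The groups did not overlap, and the gap between the aged replicates was 0.22 on the log2 scale. Its log2 change was -0.53 ± 0.085 (edgeR adjusted p = 0.00593). Without young replicate 1 the change was -0.48 and just missed the threshold (adjusted p = 0.0541). The gene lies on chromosome 13, 114953096 to 115101964 (minus strand, ENSMUSG00000042284.10). It shares 3.68% of its exon bases with the gene model Gm49395 on the same strand, listed at 0 counts in both aged libraries and at 6 and 1 in the young ones.

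The genes that fell have the longest main transcripts of the 8 in GENCODE, with 9767 bases for Itga4 and 10967 bases for Itga1, and the lowest GC content, 41.1% and 42.8%. The other members run from 2683 to 7020 bases and from 44.8% to 58.0% GC. When per-library trends with transcript length and GC content were entered as offsets, an alternative chosen after seeing the data, the change of Itga4 was -0.39 (edgeR adjusted p = 0.024) and that of Itga1 was -0.34 (0.0171). The direction was the same and both genes passed, at smaller sizes. Under the same offsets Itgb1 rose by 0.22 (edgeR adjusted p = 0.0362) and Itgb7 fell by 0.20 on the log2 scale (0.0495), so that the beta chains moved in opposite directions.

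**Figure D2:**
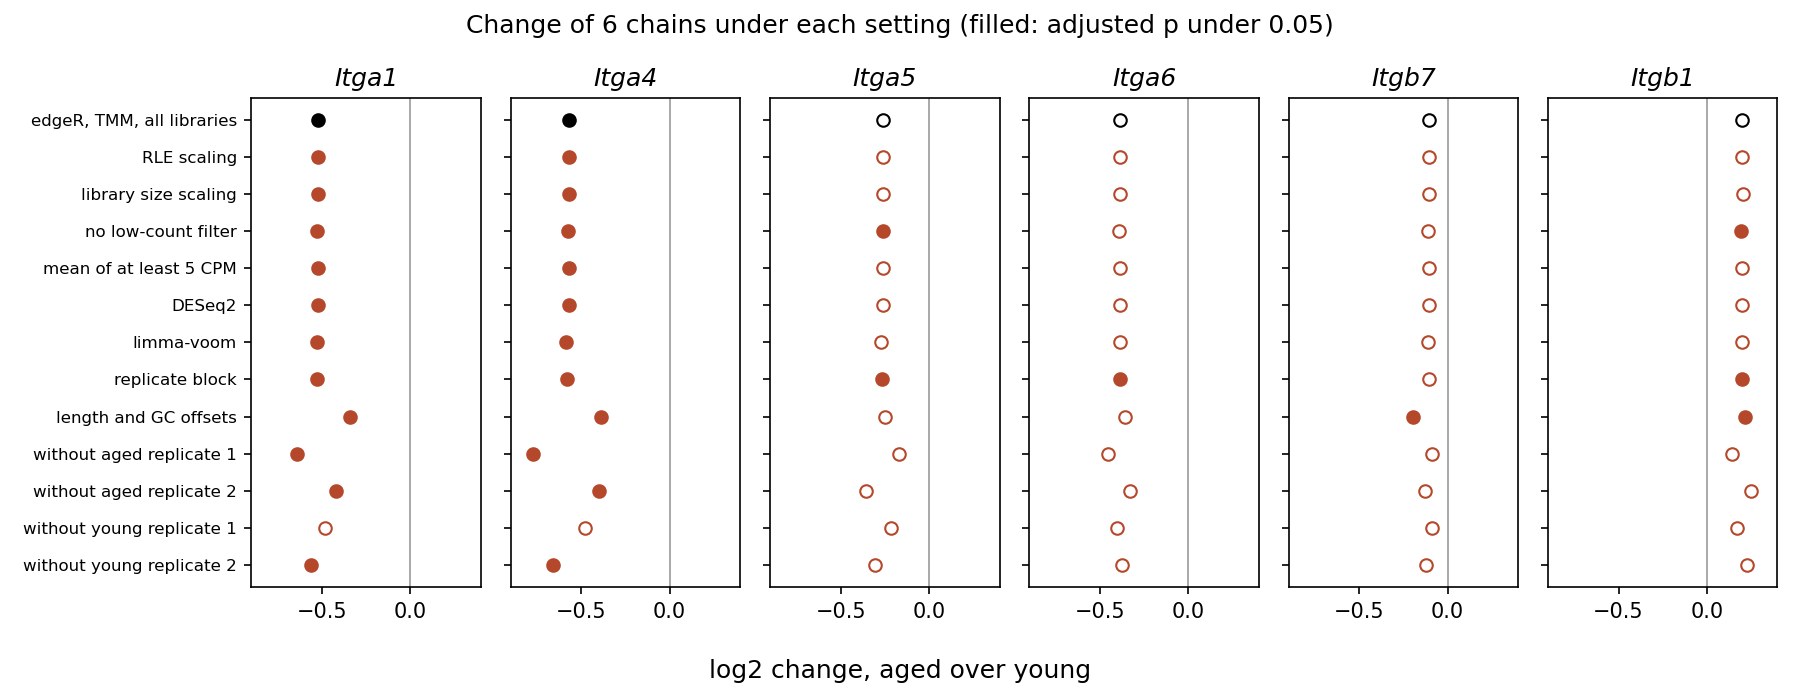
Log2 change (aged over young) of 6 chains under the edgeR test with all libraries and under 12 alternatives, filled where the adjusted p was under 0.05. Itga1 and Itga4 lie below 0 throughout and are open only without young replicate 1, and Itgb1 lies above 0 throughout and is filled in 3 alternatives.

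The 250 bases before the RefSeq start of Itga4 and Itga1, the genes that fell together, are shown beside those of the beta chains, which did not pass. They come from RefSeq on GRCm38.p6, whose promoter table holds 6 of the 8 members (not Itga6 and Itgae). Sequences run 5′ to 3′ on the gene's strand, for Itga4 chr2:79255176-79255425 (plus), for Itga1 chr13:115101965-115102214 (minus), for Itgb1 chr8:128685404-128685653 (plus) and for Itgb7 chr15:102231936-102232185 (minus). Capitals mark exact matches, on either strand, to TGTGGT (the core bound by RUNX factors), GGAAGT (an ETS core), GGGCGG (the GC box) or CCAAT (the CCAAT box).
Itga4: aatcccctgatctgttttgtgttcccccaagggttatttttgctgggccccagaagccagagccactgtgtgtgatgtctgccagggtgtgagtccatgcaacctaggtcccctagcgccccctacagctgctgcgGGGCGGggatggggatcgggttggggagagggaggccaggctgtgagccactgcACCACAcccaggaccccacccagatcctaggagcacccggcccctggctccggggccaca
Itga1: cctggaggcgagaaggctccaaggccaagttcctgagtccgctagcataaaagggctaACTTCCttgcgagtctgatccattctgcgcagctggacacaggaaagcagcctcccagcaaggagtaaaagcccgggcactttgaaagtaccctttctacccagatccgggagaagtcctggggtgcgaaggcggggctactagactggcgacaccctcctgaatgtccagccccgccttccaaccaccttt
Itgb1: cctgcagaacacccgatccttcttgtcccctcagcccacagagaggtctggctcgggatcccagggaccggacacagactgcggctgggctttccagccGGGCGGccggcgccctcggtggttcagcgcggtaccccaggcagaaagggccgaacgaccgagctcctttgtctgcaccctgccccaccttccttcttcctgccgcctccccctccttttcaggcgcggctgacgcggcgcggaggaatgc
Itgb7: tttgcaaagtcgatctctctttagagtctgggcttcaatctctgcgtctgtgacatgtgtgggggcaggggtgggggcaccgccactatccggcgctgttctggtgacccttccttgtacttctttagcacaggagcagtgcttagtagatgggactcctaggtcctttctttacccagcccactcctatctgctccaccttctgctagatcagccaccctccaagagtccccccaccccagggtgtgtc
Itga4 held 1 RUNX core, read on the other strand and starting 60 bases before the start, and 1 GC box, starting 114 bases before it. Itga1 held 1 ETS core, read on the other strand and starting 192 bases before the start, and none of the other motifs. Itgb1 held 1 GC box, 151 bases before the start, and Itgb7 held none of the 4 motifs. No motif was common to Itga4 and Itga1. Among 32851 promoter windows of the same length, 14.0% held the RUNX core, 19.7% the ETS core, 32.7% the GC box and 33.8% the CCAAT box, so a match is a description of the letters and no more.

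Itga5, the alpha chain of the main fibronectin receptor, had 61.5 and 70.1 CPM in aged monocytes, against 81.0 and 76.3 CPM in young ones. The aged values were lower in both libraries, though the gap to the nearest young library was small. Its log2 change of -0.26 ± 0.086 did not pass (edgeR adjusted p = 0.113). Unlike Itga4 and Itga1, Itga5 was higher in aged replicate 2 than in aged replicate 1. The gene lies on chromosome 15, 103344286 to 103366763 (minus strand, ENSMUSG00000000555.8).

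Itga6, the alpha chain of laminin receptors, had 16.0 and 14.6 CPM in aged and 19.8 and 20.3 CPM in young monocytes. The log2 change was -0.39 ± 0.12 (edgeR adjusted p = 0.088), a 1.31-fold lower mean that did not pass. It lies on chromosome 2, 71745616 to 71858416 (plus strand, ENSMUSG00000027111.15).

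Itga9 and Itgae were barely transcribed. Itga9 gave 22 and 20 counts in the aged libraries and 22 and 18 in the young ones (0.877 and 0.920 CPM in aged, against 0.637 and 0.903 CPM in young), and its log2 change of 0.25 ± 0.48 did not pass (edgeR adjusted p = 0.807). Itgae, the only known alpha partner of beta-7 besides alpha-4, gave 13 and 7 counts in the aged and 9 and 13 counts in the young libraries. The exact 95% Poisson intervals, which cover counting error only, were 0.276 to 0.887 and 0.130 to 0.664 CPM in the aged libraries, against 0.119 to 0.495 and 0.347 to 1.12 CPM in the young ones. These intervals overlap, and no difference was detectable at this depth (log2 change -0.0059 ± 0.75, adjusted p = 0.997 with edgeR). Itgae was nonetheless above the 3 counts that a count of 0 allows, and it stood below Itgb7 in every library by a wide margin. Itga9 lies on chromosome 9, 118606690 to 118901003, and Itgae on chromosome 11, 73090583 to 73147446, both on the plus strand (ENSMUSG00000039115.13 and ENSMUSG00000005947.11).

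The balance between chains was read as the ratio of their counts within a library, which does not depend on scaling between libraries. The ratio can still move with per-library trends with transcript length and GC content, and it was not recomputed with those offsets. Under the offsets the log2 change was -0.39 for Itga4, -0.20 for Itgb7 and 0.22 for Itgb1, against -0.57, -0.11 and 0.20 without them. For each count of Itgb1 there were 0.529 and 0.439 counts of Itga4 in the aged libraries, against 0.898 and 0.761 in the young ones. The mean log2 ratio was -1.05 ± 0.19 in aged and -0.27 ± 0.17 in young monocytes (SD, n = 2 each), a difference of -0.78. This is 4.08 times the larger SD. Per Itgb7 count there were 0.244 and 0.184 counts of Itga4 in the aged libraries and 0.310 and 0.279 in the young ones, a difference of -0.47 in the mean log2 ratio. That difference is only 1.65 times the larger SD. The ratio of Itgb7 to Itgb1 was 2.17 and 2.39 in the aged libraries, against 2.90 and 2.73 in the young ones, a difference of -0.30 on the log2 scale (3.11 times the larger SD). In each of these the groups did not overlap, which was also so for 51.6% of all tested genes taken singly. The share among ratios of other genes was not computed. Each gave an exact two-sided permutation p = 0.333, which is the smallest that 2 libraries against 2 can give, so the test cannot pass here. The ratios of 3 more alpha chains to Itgb1 were also lower in both aged libraries, with log2 differences of -0.73 for Itga1, -0.59 for Itga6 and -0.46 for Itga5, each without overlap of the groups, while Itga9 and Itgae had too few counts for a ratio. All ratios to Itgb1 share its higher values in the aged libraries, and Itga4 and Itgb7 recur, so the ratios are not separate observations. Per length, Itgb7 exceeded Itgb1 by 3.09-fold and 3.40-fold in the aged libraries and by 4.12-fold and 3.87-fold in the young ones.

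**Figure D3:**
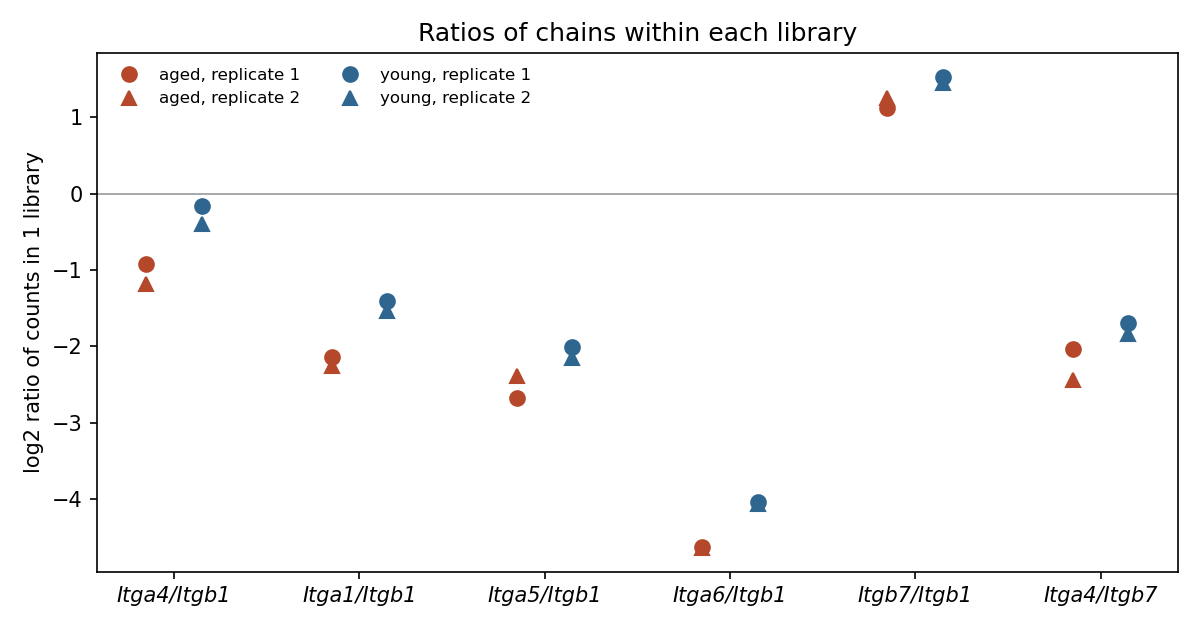
Log2 ratio of the counts of a chain to those of Itgb1 or Itgb7 within each library, aged (red) left of young (blue), circles for replicate 1 and triangles for replicate 2. In all 6 ratios both aged libraries lie below both young ones, but the ratios share chains and are not separate observations.

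The other integrin chains changed in both directions. Of 19 chains outside the group 11 were tested, of which 3 rose, 1 fell and 7 did not pass, with a median log2 change of 0.089. That is 36.4% called, against 5.77% of all tested genes. This list and those of ligands and partners below were chosen with earlier results of these data known, so their shares are descriptions. Itgb5, a beta chain that pairs with alpha-v, rose by 0.69 ± 0.072 on the log2 scale (98.9 and 97.3 CPM in aged, 59.9 and 61.5 CPM in young), Itgax, the alpha-X chain, by 0.66 ± 0.14 and Itgb2l, a gene related to Itgb2, by 0.41 ± 0.069. Itgb3 fell by 0.68 ± 0.099 on the same scale (33.2 and 35.3 CPM in aged, 50.9 and 58.7 CPM in young). The most abundant other chains, Itgb2 and Itgal, which form the leukocyte integrin LFA-1, gave 0.14 ± 0.050 and 0.089 ± 0.053 and did not pass (edgeR adjusted p = 0.126 and 0.37). Itgav, a further partner of beta-1, gave -0.026 ± 0.089 and did not pass (edgeR adjusted p = 0.905; gene outside the naming rule), as did Itga8 with -0.18 ± 0.14 (0.507; likewise outside it). Without young replicate 1, Itgax and Itgb2l did not pass (edgeR adjusted p = 0.196 and 0.0863).

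**Figure D4:**
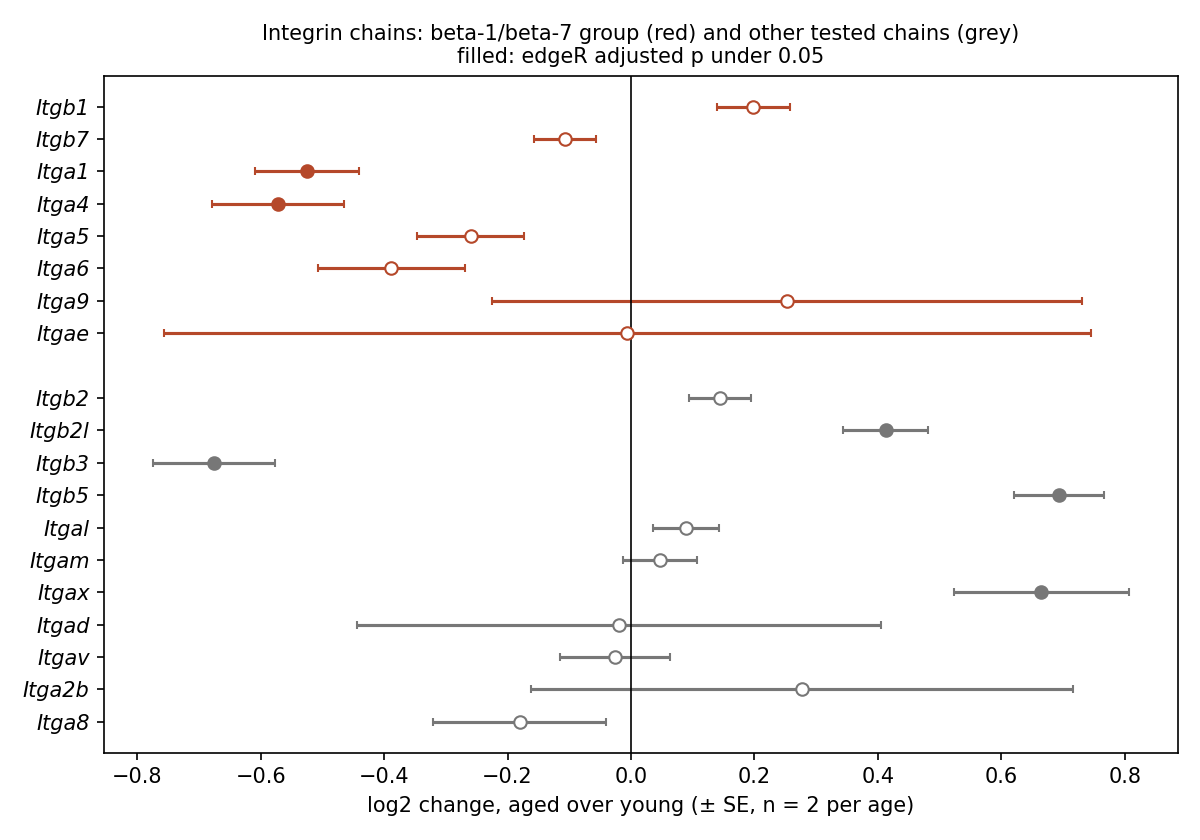
Log2 change (aged over young, ± SE, n = 2 per age) of the 8 chains of the beta-1 and beta-7 group (red) and of 11 other tested integrin chains (grey), filled where the edgeR adjusted p was under 0.05. Itga1 and Itga4 are filled left of 0 with Itgb3, and Itgb5, Itgax and Itgb2l are filled right of 0.

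Genes for ligands of these integrins were mostly too low to test in the sorted cells. Of 33 such genes 11 were tested, of which 2 fell and 0 rose, with a median log2 change of -0.16. The share called was 18.2%, against 5.77% of all tested genes. Fn1, which encodes fibronectin, the ligand of alpha-4 beta-1 and alpha-5 beta-1, was the most abundant, with 3095 and 3870 CPM in aged and 4442 and 4597 CPM in young monocytes (-0.38 ± 0.086, edgeR adjusted p = 0.0308). Thbs1, which encodes thrombospondin-1, fell as well, with 69.5 and 63.8 CPM in aged against 86.3 and 85.3 CPM in young (-0.36 ± 0.077, edgeR adjusted p = 0.0227). Emilin1, a matrix ligand of alpha-4 and alpha-9 integrins, stood at 107 and 101 CPM in aged and 105 CPM in both young libraries. Fn1 did not pass without young replicate 1 (0.0764) or with the length and GC offsets (-0.25, 0.128), and Thbs1 did not pass with the offsets (-0.28, 0.0518) or when aged replicate 2 (0.0751), young replicate 1 (0.162) or young replicate 2 (0.0721) was left out. Outside the naming rule, Vcam1 had 17.1 and 15.8 CPM in aged and 21.4 and 17.1 CPM in young monocytes, and Madcam1 was at 0 in all 4 libraries.

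Genes for partners of the integrins inside the cell were read next. Among 38 tested genes for proteins that bind beta tails, activate integrins or link them to actin and kinases, 1 fell, 0 rose and 37 did not pass, which is 2.63% called, against 5.77% of all tested genes, with a median log2 change of 0.051. The call was Flna, encoding filamin A, which binds beta tails and actin, with 2700 and 3210 CPM in aged and 3497 and 3740 CPM in young monocytes (-0.29 ± 0.075, edgeR adjusted p = 0.0499). It lay at the threshold and did not pass when aged replicate 1 (0.0652), young replicate 1 (0.0842) or young replicate 2 (0.112) was left out, among genes of at least 5 CPM (0.0565), or with the length and GC offsets (-0.17, 0.236). Zyx, the zyxin gene of focal adhesions, was next in abundance and gave 0.14 ± 0.057 (edgeR adjusted p = 0.2). Outside the naming rule, the talin gene Tln1 had 869 and 1232 CPM in aged and 1085 and 1186 CPM in young libraries, and the kindlin-3 gene Fermt3 had 461 and 463 CPM in aged and 407 and 429 CPM in young ones, neither of which passed (edgeR adjusted p = 0.655 and 0.158). Among 16 genes for membrane proteins that associate with integrins, such as tetraspanins, 1 rose and 15 did not pass. This is 6.25% called, close to the 5.77% of all tested genes. Plaur, the urokinase receptor, rose by 0.25 ± 0.062 (191 and 200 CPM in aged, 160 and 168 CPM in young; edgeR adjusted p = 0.0429) and did not pass when aged replicate 2 (0.127), young replicate 1 (0.309) or young replicate 2 (0.0889) was left out. The most abundant of this list, Cd53 and Emb, gave -0.14 ± 0.051 and -0.12 ± 0.050 and did not pass (edgeR adjusted p = 0.152 and 0.189).

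Patterns across the 4 libraries were compared by the root mean square distance of mean-centred log2 CPM, over 9193 genes of at least 5 CPM. Nearest to Itga4 were Ncapg2 (0.039), Dhx9 (0.041) and N4bp2 (0.041), and nearest to Itga1 were Gm46224 (0.017), Arl5b (0.024) and Setd5 (0.026). Nearest to Itgb1 were Dctn5 (0.0073), Il13ra1 (0.0092) and Stx18 (0.014). The distance is not scaled to the size of a gene's own change, so distances to Itgb1, whose levels varied little, cannot be set against those to Itga4 and Itga1. With 4 libraries such likeness is a description.

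Markers were read for the label and for other cells. The counts of markers called, here and in the next paragraph, stand beside 2.87% of all tested genes called higher and 2.89% called lower. The 8 monocyte markers summed to 39406 and 39145 CPM in aged monocytes, against 36921 and 39285 CPM in young ones (4 higher, 1 lower), among them Lyz2 at 34835 and 34698 CPM in aged and 32747 and 35199 CPM in young and Csf1r at 1768 and 1711 CPM in aged against 1392 and 1384 CPM in young. The 9 markers of non-classical monocytes summed to 1887 and 1740 CPM in aged monocytes, against 1377 and 1301 CPM in young ones, with 6 higher, 0 lower and 3 that did not pass (Cx3cr1, Itgal and Spn, of which Spn had a log2 change of -0.24). The 7 markers of classical monocytes summed to 14714 and 14712 CPM in aged monocytes, against 18453 and 18594 CPM in young ones, with 0 higher, 4 lower and 3 that did not pass (F13a1, Vcan and Ccr2). Ccr2 had 2367 and 2079 CPM in aged monocytes, against 2007 and 1943 CPM in young ones. The part of subset proportions in the changes of the integrin genes was not tested. The list of classical markers also holds Fn1.

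Markers of other cells that the sort could hold were summed in the same way. The 8 T cell markers summed to 17.9 and 19.9 CPM in aged monocytes, against 15.2 and 17.8 CPM in young ones, and the 7 NK cell markers to 46.4 and 43.2 CPM in aged against 48.2 and 52.4 CPM in young, with no marker of either list past the threshold. The 7 mast cell and basophil markers summed to 38.9 and 45.4 CPM in aged and 57.0 and 60.9 CPM in young, with 1 lower (Kit, which the progenitor list also holds). The 7 B cell markers summed to 48.2 and 49.6 CPM in aged and 31.3 and 29.4 CPM in young, with 3 higher, and the 6 plasma cell markers to 497 and 483 CPM in aged against 419 and 421 CPM in young, with 1 higher. That sum was mostly Xbp1, which did not pass (edgeR adjusted p = 0.058). The 1 higher plasma cell marker was Sdc1, with 3.95 and 4.69 CPM in aged against 1.62 and 2.06 CPM in young. The 7 megakaryocyte markers summed to 4.15 and 4.003 CPM in aged and 2.52 and 2.21 CPM in young, with Gp1bb at 0 throughout. Endothelial markers, 6 in number, summed to 18.6 and 18.5 CPM in aged against 13.1 and 15.6 CPM in young, mostly Flt1, and the 7 stromal and smooth muscle markers to 29.5 and 27.5 CPM in aged against 40.8 and 37.7 CPM in young, mostly Acta2, the 1 marker of that list that was lower. The 7 markers of conventional dendritic cells summed to 207 and 211 CPM in aged and 175 and 181 CPM in young (2 higher), the 6 of plasmacytoid dendritic cells to 103 and 105 CPM in aged against 101 and 99.3 CPM in young, and the 6 of stem and progenitor cells to 85.1 and 87.9 CPM in aged against 82.8 and 87.1 CPM in young (2 higher, 1 lower). The 2 higher conventional dendritic markers were Flt3, which the progenitor list also holds, and Itgax, one of the other integrin chains above. The 10 neutrophil markers, of which monocytes also transcribe several, summed to 28960 and 29795 CPM in aged and 31824 and 30795 CPM in young (1 higher, 3 lower), the 5 eosinophil markers to 113 in both aged libraries and 93.9 and 97.0 CPM in young (2 higher), and the 5 erythroid markers to 298 and 304 CPM in aged against 305 and 278 CPM in young. The higher neutrophil marker was Ltf, with 2299 and 2305 CPM in aged against 1267 and 1339 CPM in young (log2 change 0.82). The lower ones were S100a8, Elane and Mpo, with log2 changes of -0.40, -0.33 and -0.23, so the sum hides changes in both directions. The part of the other cells in the values of the integrin genes was not tested.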

How the data were processed

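Expression was measured by RNA sequencing of monocytes sorted by flow cytometry from the marrow of aged and young mice, 2 libraries per age, grouped by the labels. Per the labels' protocols, poly(A) RNA was captured on oligo-dT beads and the libraries kept the strand (dUTP). The authors deposited, for each library, a table of whole-number counts by gene symbol, without normalization. Tools listed without roles in the submitters' processing notes are STAR 2.5.3, HTSeq, cutadapt and DESeq2, with the build mm10. The annotation and the strand setting of the counting were not given in the sources used here.

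Aged replicate 1 held 24918091 counts and aged replicate 2 held 21837261, young replicate 1 held 34278754 and young replicate 2 held 20159129. A count of 0 allows up to 3 counts, equal to 0.120 CPM in aged replicate 1, 0.138 in aged replicate 2, 0.0868 in young replicate 1 and 0.151 in young replicate 2, for counting error only. Genes were kept by filterByExpr (minimum count 10, minimum total 15), scaled by TMM and tested two-sided with edgeR's quasi-likelihood test over all 12035 genes, at an adjusted p of 0.05. The standard error is the log2 change divided by the square root of F. Lengths and coordinates are from GENCODE M21 (GRCm38), with the APPRIS principal transcript as length. Motifs were counted in RefSeq promoters.

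Named were all 8 members, list genes past the threshold (up to 6 per direction), the 2 most abundant of each list and the 3 nearest patterns; others are said to be outside the rule. The members and lists were chosen with earlier results of these data known. No list was tested as a set. Alternatives were RLE and library-size scaling, 2 other filters, DESeq2, limma-voom, the replicate number as a block, each library left out and, added after seeing the data, length and GC offsets (natural splines, 5 degrees of freedom each) and joined exon length. Replicates of 1 age differed by more than sampling noise (chi-square per degree of freedom 10.3 for aged and 13.5 for young) and were kept as separate libraries. The test was tried on simulated data. Those counts were drawn with the dispersions fitted here, and no result in this text rests on them. The tools were edgeR 4.0.16, DESeq2 1.42.0 and limma 3.58.1, run in R 4.3.3.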

Additional observations from a re-analysis of the deposited data

How the results depend on the processing

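Itga1 and Itga4 were lower in aged monocytes under all 12 alternatives and passed in 11, the exception being the one without young replicate 1. Itga1 ranged from -0.64 to -0.34 and Itga4 from -0.77 to -0.39 on the log2 scale. Without aged replicate 2 the change was -0.42 for Itga1 and -0.40 for Itga4, so their order is not fixed. Itgb1 passed as higher in 3 alternatives (no low-count filter, replicate block, length and GC offsets), Itga5 as lower in 2, and Itga6 and Itgb7 in 1 each. Of the 8 members 4 passed with no low-count filter (1 higher, 3 lower) and 4 with the length and GC offsets (1 higher, 3 lower). Over the libraries left out, 0 to 2 passed, all lower, and 0 without young replicate 1. Over all genes, 694 of 12035 were called in the test reported (346 higher, 348 lower). With no low-count filter 1399 of 17314 were called (606 higher, 793 lower), and with the length and GC offsets 710 of 11910 (369 higher, 341 lower). Leaving out libraries gave 197 to 1040 calls (116 to 452 higher, 81 to 588 lower), with the fewest, 197, without young replicate 1, 588 lower without aged replicate 1 and 216 higher without young replicate 2. A lone library left in an age is assumed to vary like the other age. The cause of these shifts was not tested.

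With the replicate number as a block 1817 of the 12035 tested genes were called (801 higher, 1016 lower). Of these, 5 were members (1 higher, 4 lower), and 11 were among the 38 tested genes of the adaptor list (4 higher, 7 lower). Deviations of same-numbered libraries correlated at 0.20 over 9194 genes, and no label says whether a number marks a shared animal or day, so pairing was not established.

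Over the libraries left out Itgae ran from -0.61 to 0.69 and Itga9 from -0.0064 to 0.49. Itgae changed sign with limma-voom (0.14), with the block (0.025), with the offsets (0.0064), without aged replicate 2 (0.27) and without young replicate 2 (0.69), and Itga9 without young replicate 1 (-0.0064), all with few counts. The differences in log2 ratio kept their sign when libraries were left out, from -0.91 to -0.64 for Itga4 to Itgb1, from -0.37 to -0.23 for Itgb7 to Itgb1 and from -0.68 to -0.27 for Itga4 to Itgb7. Ratios under the length and GC offsets were not computed. Calls in the lists ranged over all alternatives from 2 to 5 of the other chains, 0 to 2 of the ligands, 0 to 11 of the adaptors and 0 to 1 of the membrane partners, against 4, 2, 1 and 1 in the test reported. The upper ends for the other chains and the adaptors were reached with the block, where 1817 of the 12035 tested genes were called. The number called over all genes also moved between the alternatives, so these ranges are no result about the lists. With 2 libraries per age the spread rests on few values, and counting error limits Itga9 and Itgae.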
